A study of Mus musculus with 2 samples.

Results

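DNase-seq counts the places where the nuclease DNase I can cut chromatin, which are mostly promoters, enhancers and insulators held open by bound regulatory proteins. It was run on left cerebral cortex from 2 female B6CASTF1/J mice, an F1 cross, aged 36 days, with no treatment given in the labels. The labels give the animals separate numbers under a common donor entry, and they are numbered as replicates 1 and 2 in the sample description. Each mouse gave 1 library and both form a single group, which leaves no contrast of conditions. For each library 2 peak lists of different length were deposited. The shared weak regions described here were chosen by a rule on those lists: they are the rows of a mouse's longer list that overlap a row of the other mouse's longer list and no row of the shorter list of either mouse. They number 17754 of 120027 rows (14.8%) in replicate 1 and 17379 of 120701 rows (14.4%) in replicate 2. The rows shared between the longer lists that do overlap a shorter list are called stronger regions, 69077 in replicate 1 and 68549 in replicate 2. The other rows were 24571 and 28524 that met no row of the other longer list, and 8625 and 6249 that met none but overlapped a shorter list. The requirement of both mice removes many rows: judged by 1 mouse alone, 52485 rows of replicate 1 and 53472 of replicate 2 missed its own shorter list.

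In background, an accessible site can give few cuts in whole tissue because few of its cells open it or because the chromatin is only partly open in each cell. Cortex holds excitatory neurons as its main neuron class, with inhibitory interneurons, astrocytes, oligodendrocytes, microglia and vessel cells alongside them, and each class keeps its own enhancers. In these bulk libraries fewer cells of a type and less opening per cell cannot be told apart. Most accessible promoters are rich in CpG and are bound by factors such as Sp/KLF, GABP, NRF1 and YY1. Distal elements in neurons are known for AP-1 and proneural basic helix-loop-helix sites, and insulators for CTCF.

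Of the 17754 members in replicate 1, 16968 overlapped a member in replicate 2, and 16925 of the 17379 did so in the other direction. They formed 17829 merged regions. Both mice therefore describe largely the same stretches of genome, and an SD between them (n = 2) reflects how the calls differed rather than separate draws of sequence. An exact paired permutation over 2 mice cannot give a two-sided p below 0.5, so no p is given. A difference is said to exceed the spread when it has the same sign in both mice and is larger than the larger SD of the compared values in each.

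The sequences of 6 members show what the weakly called promoters look like. Each is the highest shared weak region with an edge within 1 kb of a start of a gene from a cell type or tissue list, at a gene with no shorter-list row there. By its centre the Hoxc6 row lies 1046 bp from that start. They are the GRCm38.p6 reference sequence from RefSeq, plus strand, which is not the allele sequence of these F1 animals. Capitals mark bases inside a deposited footprint, a short stretch protected from cutting, in either mouse. Bases in annotated untranslated regions are left out, which shortens Olig2 from 258 to 197 bases and Isl1 from 260 to 191. Olig2 lies at chr16:91225260-91225456, Cldn5 at chr16:18777458-18777520, Kl at chr5:150952817-150953080, Isl1 at chr13:116309690-116309880, Slc6a4 at chr11:76998994-76999120 and Hoxc6 at chr15:102999234-102999371. The Cldn5 and Kl rows fell inside exons, and none of the 6 stretches shown held a CTCF, AP-1 or Sp/KLF match.
Olig2: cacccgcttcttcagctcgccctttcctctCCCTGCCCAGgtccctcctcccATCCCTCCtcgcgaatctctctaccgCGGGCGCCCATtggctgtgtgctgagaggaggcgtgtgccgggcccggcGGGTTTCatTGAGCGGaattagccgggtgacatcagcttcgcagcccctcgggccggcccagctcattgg
Cldn5: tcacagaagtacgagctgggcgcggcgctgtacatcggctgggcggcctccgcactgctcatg
Kl: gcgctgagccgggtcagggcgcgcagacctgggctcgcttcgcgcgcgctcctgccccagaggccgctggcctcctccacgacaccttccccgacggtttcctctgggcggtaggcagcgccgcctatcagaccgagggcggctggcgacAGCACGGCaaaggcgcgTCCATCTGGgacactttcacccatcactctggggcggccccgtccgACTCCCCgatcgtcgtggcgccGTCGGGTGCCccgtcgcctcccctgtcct
Isl1: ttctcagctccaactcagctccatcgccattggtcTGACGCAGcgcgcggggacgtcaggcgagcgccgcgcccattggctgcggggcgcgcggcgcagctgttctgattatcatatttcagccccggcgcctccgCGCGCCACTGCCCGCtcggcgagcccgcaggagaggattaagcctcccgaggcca
Slc6a4: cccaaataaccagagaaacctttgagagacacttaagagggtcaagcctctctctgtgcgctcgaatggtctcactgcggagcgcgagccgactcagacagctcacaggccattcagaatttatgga
Hoxc6: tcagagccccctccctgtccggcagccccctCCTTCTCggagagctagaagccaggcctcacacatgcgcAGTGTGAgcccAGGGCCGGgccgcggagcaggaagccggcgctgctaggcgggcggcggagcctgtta

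The footprints within these stretches were few and short. Olig2 had 3 footprints in replicate 1 and 2 in replicate 2, and 43 of its 197 bases lay in one. The Cldn5 and Slc6a4 stretches had none in either mouse, though the replicate 2 row of Slc6a4, which reached further, held 1. The full Isl1 rows held 5 footprints in replicate 1 and 4 in replicate 2, and the shortened stretch shown held 2 and 0. Kl held the only match to any of the 17 searched patterns, a proneural E-box, and that match lay wholly inside footprint bases.

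A second set shows distal members with matches that the results turn on, with the match in capitals. The first 2 are the highest distal members with a CTCF match outside untranslated regions. They lie in introns at chr5:36946561-36946712, with Ppp2r2c as the nearest start, and at chr11:67676314-67676428 with Gas7 as the nearest start. The other two were chosen after values were seen, as the highest distal members with an AP-1 match (chr9:106337526-106337816) and with a proneural E-box (chr7:101462773-101462958, in an intron near the start of Pde2a).
CTCF-Ppp2r2c: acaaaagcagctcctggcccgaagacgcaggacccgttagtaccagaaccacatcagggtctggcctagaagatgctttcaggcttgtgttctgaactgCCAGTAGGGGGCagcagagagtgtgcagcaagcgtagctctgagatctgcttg
CTCF-Gas7: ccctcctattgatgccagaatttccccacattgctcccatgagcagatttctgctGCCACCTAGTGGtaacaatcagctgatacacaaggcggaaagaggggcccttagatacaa
AP-1-Gm29123: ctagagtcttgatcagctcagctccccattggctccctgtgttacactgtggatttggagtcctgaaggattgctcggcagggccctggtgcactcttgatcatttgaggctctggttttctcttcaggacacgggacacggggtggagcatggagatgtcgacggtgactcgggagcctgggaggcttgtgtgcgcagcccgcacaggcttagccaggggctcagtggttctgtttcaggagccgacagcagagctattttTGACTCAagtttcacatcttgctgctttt
proneural E-box-Pde2a: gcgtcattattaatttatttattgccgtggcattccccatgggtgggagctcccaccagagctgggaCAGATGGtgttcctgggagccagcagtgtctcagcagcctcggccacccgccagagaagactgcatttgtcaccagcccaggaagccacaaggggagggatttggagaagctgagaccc

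In both CTCF sequences a deposited footprint covered at least 50% of the match in each mouse. The AP-1 match was covered in neither mouse, and the E-box match in replicate 2 only. The Ppp2r2c region had a height of 1.07 in replicate 1 and 0.942 in replicate 2. The Gas7 region had heights of 1.18 and 0.797.

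The height of a row is the authors' deposited signal value. It moves in whole steps of 0.00608 in replicate 1 and 0.00561 in replicate 2, and the factor behind the step is not given in the sources used here. Height and rate fed the lists that the rule uses, so these values are a description. The median height of the shared weak regions was 0.474 in replicate 1 and 0.410 in replicate 2, or 78 and 73 steps. Stronger regions had medians of 1.16 and 0.914, and rows of 1 longer list only had 0.389 and 0.342. Of the members, 151 (0.851%) and 219 (1.26%) stood above the median of the stronger regions. The ranges overlapped widely at the low end, since 92.8% of members in replicate 1 and 69.7% in replicate 2 were higher than the lowest 5% of the shorter list.

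**Figure D1:**
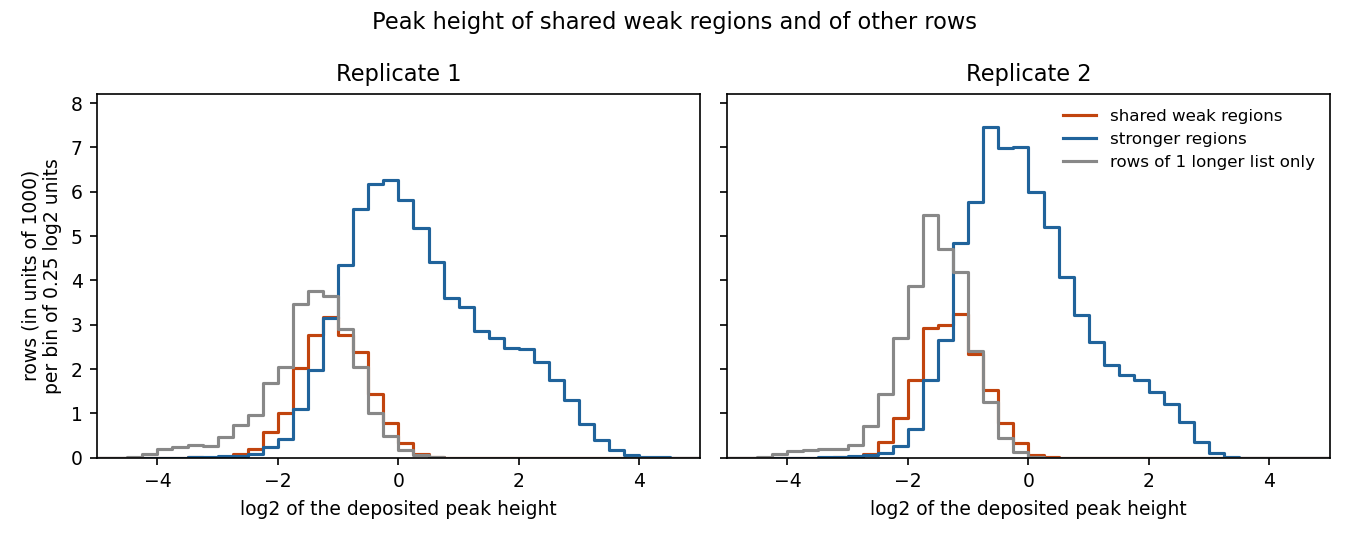
Number of rows (in units of 1000, y axis) by log2 of the deposited peak height (x axis) in each mouse. Shared weak regions (medians 0.474 and 0.410 before the log) sit left of the stronger regions (1.16 and 0.914) and share the range of the rows of 1 longer list only.

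Members were also narrower. Their median width was 144 bp in replicate 1 and 158 bp in replicate 2, against 220 and 240 bp for stronger regions, and together they covered 2.75 and 2.93 Mb. The lowest deposited false discovery rate of the cut rate inside a member had a median of 0.00779 in replicate 1 and 0.00613 in replicate 2. A position under 0.001 was held by 1507 members (8.49%) and 1817 members (10.5%), over a median of 15 bp in each mouse. Low rates thus reached only short stretches of these members. Just inside the rule, 100 and 58 members lay within 10 bp of a shorter-list row without overlapping it, with median heights of 0.474 and 0.384. Just outside, 85 and 44 shared rows overlapped a shorter-list row by at most 10 bp, with median heights of 0.468 and 0.418.

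The mice ordered these weak regions similarly. Over 16051 members that met 1 member of the other mouse and were met by it, Spearman's rho of height was 0.833, given as a description because the regions share 2 libraries. It was 0.896 over 60256 pairs of stronger regions, whose heights span a wider range. After centring on the median, the log2 ratio of the heights had an SD of 0.30 over the weak pairs and 0.51 over the stronger pairs. Counting steps alone would give an SD of about 0.23 for a member of median height and 0.15 for a stronger region, if a step were 1 independent cut. Of the weak pairs, 99.8% lay within 1 log2 unit of the centre. The rule itself removes pairs in which either mouse reached the shorter list, so a narrow ratio is partly fixed by it.

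Named by rank, 4 of the highest members lay in introns, with Dlgap3, Map7d1, Cdk5r1 and Pde2a as the nearest genes. Dlgap3 encodes a postsynaptic scaffold protein, and its member had the greatest height in replicate 1, at 1.86, and 1.32 in replicate 2. The 5 lowest members, from 0.0730 to 0.103 in replicate 1 and 0.0505 to 0.0898 in replicate 2, had no footprint in replicate 1. Their nearest starts were those of Npr2, Gm12126 and Gm24149, and each lay within 812 bp of a shorter-list row. Low height did not mean a high rate in replicate 1. There the lowest deposited rate ran from 6.06e-05 to 0.0156 in these 5 and from 0.000673 to 0.0278 in the 5 highest. In replicate 2 it ran from 0.000218 to 0.0224 in the 5 lowest and from 0.00106 to 0.00558 in the 5 highest. The 5 lowest thus reached higher rates in that mouse. Among paired members whose mean height over both mice was above the median of that mean, the centred ratio was highest toward replicate 2 near Herc3 (1.33), Gm8210 (1.17) and Cacna1e (1.15). It was highest toward replicate 1 near Foxk1 (-1.14), Elfn1 (-1.12) and AC102124.1 (-1.10), and all these values are log2 differences without a replicate check.

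Shared weak regions were mostly distal. By the centre of the row, 18.9% lay within 1 kb of an annotated start in each mouse, against 38.2% of the stronger regions in each mouse. Introns held 41.8% of members against 29.3% of stronger regions, intergenic sequence 33.2% against 27.9%, and exons 6.02% against 4.63% (means of 2 mice). Each of these differences exceeded the spread between mice, whose SDs were 0.0509 percentage points or less. The median distance to a start was 8919 bp in replicate 1 and 8860 bp in replicate 2, and 3259 and 3250 bp for stronger regions. Rows of 1 longer list only had a promoter share of 19.3% in replicate 1 and 15.4% in replicate 2, so the members lay below them in one mouse and above them in the other.

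**Figure D2:**
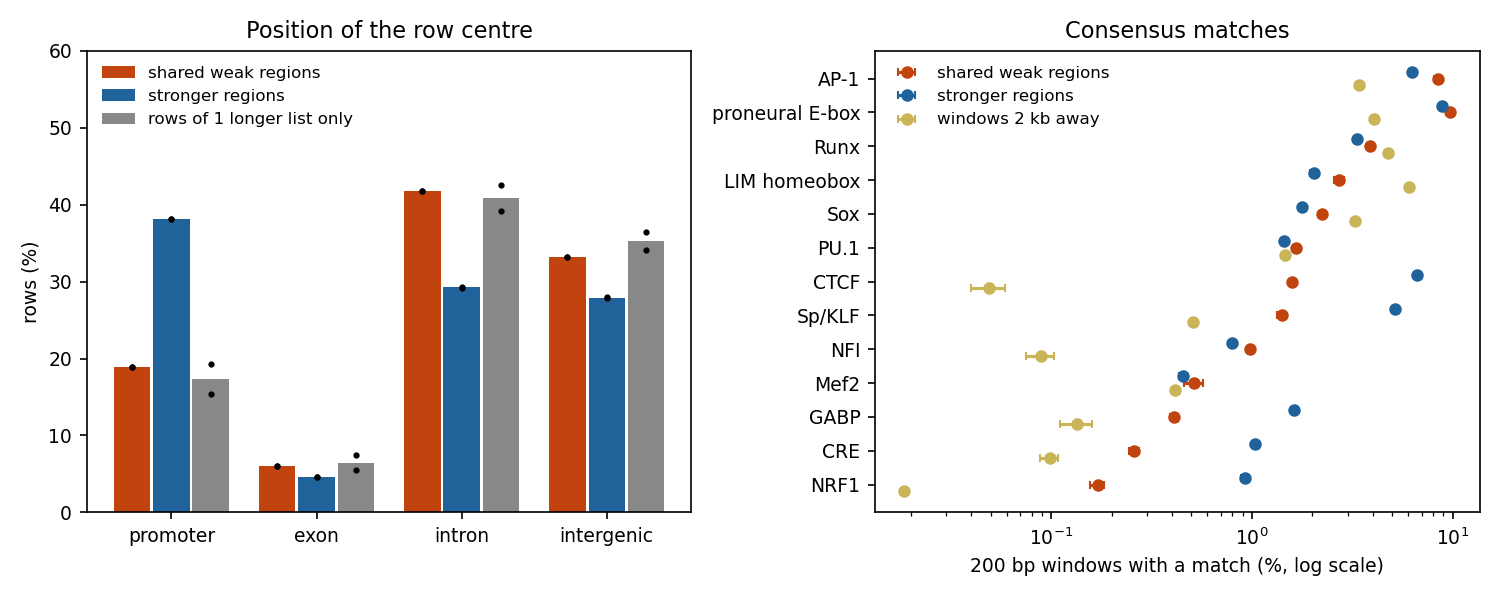
Left, percent of rows (y axis) by position of the row centre, with bars for the mean and points for each mouse. Right, percent of 200 bp windows with a consensus match on a log axis, as mean and SD of 2 mice, where shared weak regions (red) lie near windows 2 kb away for PU.1 and Mef2 and below stronger regions (blue) for CTCF, Sp/KLF, GABP, CRE and NRF1.

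Their base composition lay between that of stronger regions and that of nearby sequence outside the longer lists. GC content in the central 200 bp was 52.3% in replicate 1 and 52.1% in replicate 2, against 56.3% and 56.0% in stronger regions. Windows of 200 bp lying 2 kb to the side of members had 44.2% in each mouse. Windows that met a longer-list row of either mouse were left out by design, which left 16419 and 16090. Contrasts with these windows are therefore contrasts with uncalled sequence. The CpG ratio, observed over expected, was 0.310 and 0.311, against 0.461 and 0.458 in stronger regions. Repeat sequence took up 8.37% and 8.56% of member bases and 25.2% of the windows 2 kb away. Rows of 1 longer list only had 12.5% and 10.4% of repeat bases. The differences from stronger regions, the repeat difference from rows of 1 list, and the differences from the windows exceeded the spread between mice.

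CTCF, the main insulator protein, was the clearest case of a pattern that is scarce here but above nearby uncalled sequence. A match to its consensus was found in 1.55% of member windows in replicate 1 and 1.61% in replicate 2. Stronger regions had 6.68% and 6.67%, and windows 2 kb from the members 0.0426% and 0.0559%. Among distal regions alone the shares were 1.70% and 1.75% of members and 9.50% and 9.49% of stronger regions. In either setting the difference was larger than the larger SD of the mice. CTCF matches also went with height. The lowest quartile of distal stronger regions, with median heights of 0.486 and 0.438, held one in 2.17% in replicate 1 and 4.77% in replicate 2, much nearer to the members, and the highest quartile in 23.6% and 17.2%.

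AP-1, the Fos and Jun family whose members respond to neuronal activity, showed the opposite order over all regions. Its site (TGACTCA, both strands) was found in 8.16% of member windows in replicate 1 and 8.68% in replicate 2. Stronger regions had 6.23% and 6.29%, and windows 2 kb away 3.45% and 3.37%. Restricted to distal regions, members had 8.90% and 9.53% and stronger regions 8.35% and 8.40%, a difference that still exceeded the spread. It also moved with height. The lowest quartile of distal stronger regions, with median heights of 0.486 and 0.438, had AP-1 in 9.66% and 8.54%, so that members lay below it in replicate 1 and above it in replicate 2. The highest quartile had it in 5.30% and 7.07%.

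The proneural E-box (CAGATGG), bound by neuronal factors of the Neurod family, was found in 9.45% of member windows in replicate 1 and 9.87% in replicate 2. Over all regions this was above the stronger regions, at 8.79% and 8.83%, and over distal regions below them, at 10.1% and 10.7% against 11.8% and 11.9%. The lowest quartile of distal stronger regions had 12.2% and 10.8%. The differences from all stronger regions and from all distal ones exceeded the spread, so their direction depends on how promoters are mixed in. Windows 2 kb away held it in 4.02% and 4.05%. NFI, a glial and neuronal factor family matched here by its palindromic site, was in 0.986% and 0.961% of members, 0.821% and 0.779% of stronger regions and 0.0792% and 0.0994% of the windows. Among distal regions alone the NFI difference was within the spread.

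Promoter-type patterns were scarcer in members than in stronger regions. Sp/KLF sites (GGGGCGGGG) were in 1.41% ± 0.0713 of members and 5.18% of stronger regions, GABP sites (CCGGAAGT) in 0.407% and 1.62%, NRF1 sites (GCGCATGCG) in 0.171% and 0.921%, YY1 sites (AAGATGGCG) in 0.148% and 0.793%, and CRE sites (TGACGTCA) in 0.259% and 1.03% (means of 2 mice). Each was lower in members than in stronger regions by more than the spread. Windows 2 kb away held Sp/KLF in 0.511%, GABP in 0.135%, NRF1 in 0.0185%, YY1 in 0.101% and CRE in 0.0985%. Members lay above these windows by more than the spread for all but YY1. Members and stronger regions differ in their promoter share. Promoter members held Sp/KLF in 3.38% against 11.4% of stronger promoter regions, GABP in 0.571% against 3.69% and YY1 in 0.120% against 1.59%. AP-1 went the other way within promoters, at 5.02% against 2.83%, as did the E-box, at 6.47% against 3.88%. Among distal regions Sp/KLF was in 0.948% of members against 1.32% of stronger regions, NRF1 in 0.175% against 0.309% and YY1 in 0.155% against 0.302%, all beyond the spread. GABP, at 0.369% against 0.339%, was within it. The lowest quartile of distal stronger regions held Sp/KLF in 0.609% in replicate 1 and 0.897% in replicate 2, below the distal members at 0.987% and 0.909%.

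The LIM homeobox, Sox and Runx patterns were less frequent in members than in windows 2 kb away and more frequent than in stronger regions. The LIM homeobox core (TAATTA), an AT-rich word, was in 2.72% of members, 2.05% of stronger regions and 6.06% of windows 2 kb away. Sox sites (ACAATGG) were in 2.23%, 1.78% and 3.27%, and Runx sites (TGTGGTT) in 3.87%, 3.35% and 4.75%, in the same order. PU.1 sites (GAGGAAGT), named for the microglial and myeloid factor, were in 1.66%, 1.45% and 1.46%, so members lay above both. Among distal regions alone, the LIM homeobox and Runx differences from stronger regions did not exceed the spread, while those of Sox and PU.1 did. For Mef2 and the Pou octamer (ATGCAAAT) the difference between members and stronger regions was within the spread. Egr sites (GCGTGGGCG) were in 0.216% of members, 0.483% of stronger regions and 0.0308% of windows 2 kb away, and RFX sites in 0.176%, 0.265% and 0.0400%. A match is a description of letters and not a bound site. Base composition differed between the compared sets, and its part in these shares was not tested.

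Footprints are called from the same cut rates that made the lists, so they are described without a test. A footprint was present in 72.3% of members in replicate 1 and 69.4% in replicate 2, against 92.2% and 92.0% of stronger regions. Members held 8.37 and 7.24 footprints per kb of row, and stronger regions 12.6 and 11.4. Of the footprints in members, 25.9% and 28.1% were met by a footprint of the other mouse, against 53.7% and 56.8% in stronger regions. Height moved with all of these. The lowest quartile of distal stronger regions had a footprint in 81.9% and 83.5%, against 72.6% and 70.3% of distal members. It had 8.33 and 7.66 footprints per kb, close to the 8.47 and 7.37 of distal members. Of its footprints 31.8% and 36.3% were met, against 26.8% and 28.4% in distal members.

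Where a motif was present, its footprint was called less often in a shared weak region than in a stronger one. These matches were counted over the whole row and not in the central 200 bp. The 2 sets differ in height, and the part of height in this was not tested. CTCF matches were covered over at least 50% of their length in 162 of 258 cases in replicate 1 (62.8%, 95% Wilson interval 56.7% to 68.5%) and in 131 of 268 in replicate 2 (48.9%, 43.0% to 54.8%). In stronger regions the shares were 95.7% and 91.9%. The intervals cover counting error over matches only. NFI matches, also long sites, were covered in 56.3% and 46.7% of members against 87.5% and 74.2%. E-box matches were covered in 22.2% and 20.4% against 36.3% and 35.3%, and AP-1 matches in 8.89% and 9.35% against 12.8% and 12.3%. Sp/KLF matches had 17.8% and 8.23% against 63.1% and 56.0%. On the mean of the mice CTCF was highest and Mef2 and AP-1 lowest in both sets among the motifs counted.

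Within the members, height went with promoters and footprints but hardly with AP-1. From the lowest to the highest quartile of height, the promoter share went from 14.2% to 25.9% in replicate 1 and from 15.4% to 24.4% in replicate 2. The share with a footprint went from 49.9% to 88.2% and from 49.9% to 85.0%, and CTCF matches from 1.26% to 2.39% and from 1.33% to 2.28%. AP-1 stood at 8.02% and 8.04% in the lowest and highest quartile of replicate 1 and at 8.31% and 9.09% in replicate 2. Repeat bases went down from 10.5% to 7.55% and from 10.3% to 7.73%.

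**Figure D3:**
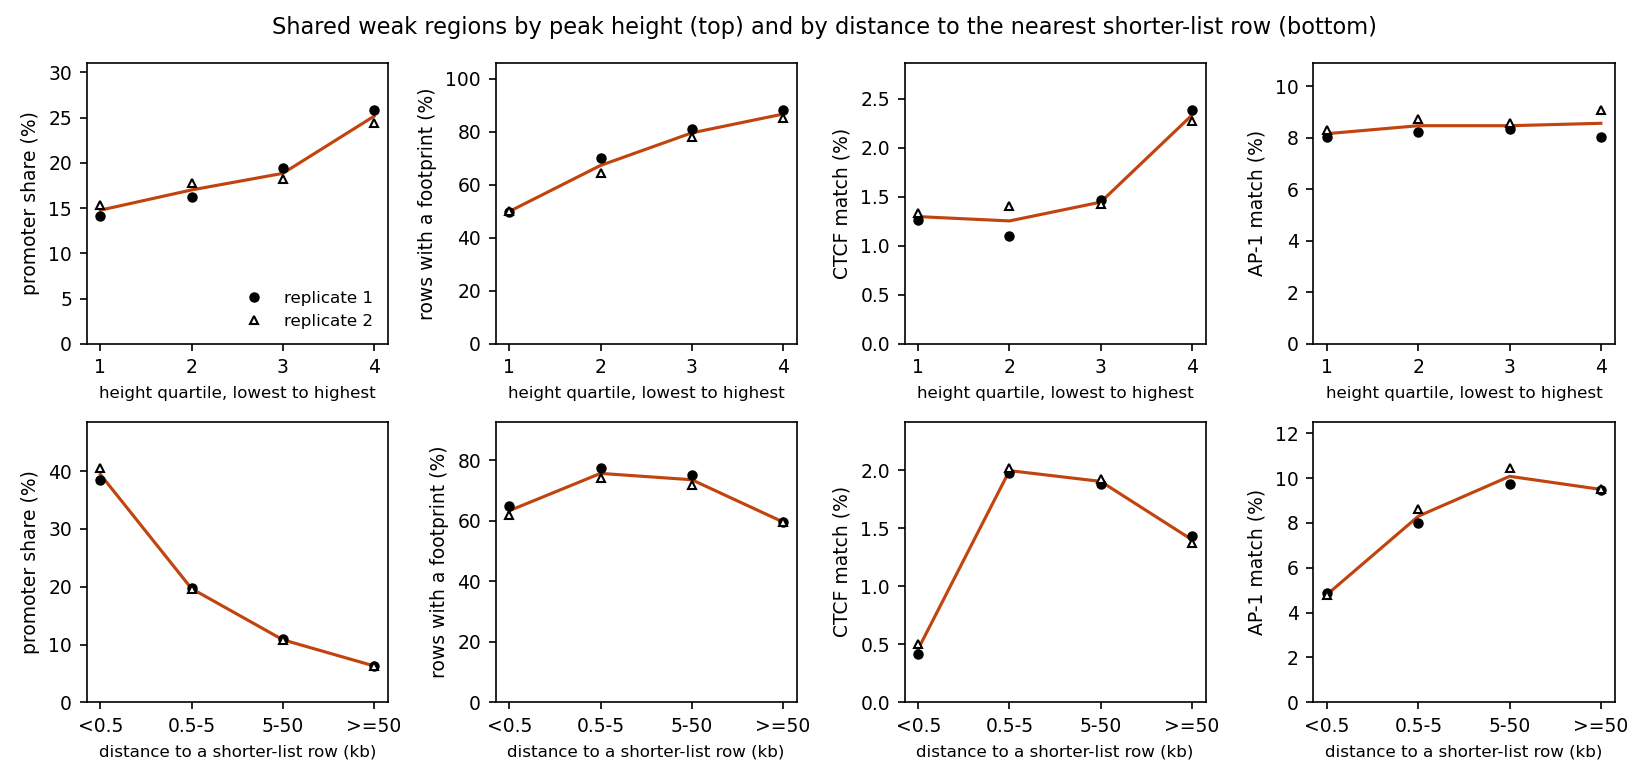
Promoter share, share with a footprint, and shares with CTCF and AP-1 matches (percent, y axes) among shared weak regions by quartile of height (top) and by distance to the nearest shorter-list row in kb (bottom), with points for each mouse and a line for their mean. Promoter share rises with height and falls with distance, from 39.4% under 500 bp to 6.30% from 50000 bp on.

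Many members lay close to a stronger call. The median distance to the nearest shorter-list row of either mouse was 5141.5 bp in replicate 1 and 5438 bp in replicate 2. Within 500 bp lay 21.7% and 20.5% of members, and 8.63% and 8.82% lay more than 50 kb away. The members within 500 bp differed from the rest in kind, since 38.4% and 40.5% were promoter regions and 0.416% and 0.505% held a CTCF match. Between 500 and 5000 bp the promoter share was 19.8% and 19.5% and the CTCF share 1.98% and 2.02%. From 50000 bp on, the promoter share was 6.26% and 6.33%, AP-1 was in 9.46% and 9.53% and the E-box in 11.5% and 12.1%. Within 500 bp, AP-1 was in 4.86% and 4.77% and the E-box in 6.05% and 5.95%.

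Most weak promoter regions lay at genes that also had a shorter-list row at a start. This held for 75.1% of 3362 promoter members in replicate 1 and 75.0% of 3293 in replicate 2. The shorter-list row could lie at another start of the gene. These shares count regions at genes of every type. Counted by gene, 61.2% of protein-coding genes had a shorter-list row at a start in both mice and 3.27% in 1 mouse. Over genes of all types the shares were 31.1% and 2.87%. Protein-coding starts took 78.9% of promoter members in each mouse. The median distance of promoter members from the start was 365.5 bp and 360 bp, against 107 bp and 113 bp for stronger promoter regions. Their GC content was 56.2% and 56.1%, against 63.0% and 62.6%. Both differences exceeded the spread between mice.

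A smaller set of genes had only weak regions at their starts. Of 21938 protein-coding genes, 342 (1.56%) had a shared weak region of each mouse that reached within 1 kb of a start and no shorter-list row there, which is 4.39% of the 7795 genes without a shorter-list row. From 1 mouse alone, counting its longer-list rows that miss its own shorter list, there were 919 such genes without replicate 2 and 1025 without replicate 1. A further 657 had some other longer-list row and 6796 had none. Among other gene types the count was 150 of 5854 lincRNA genes, 90 of 2959 antisense genes and 77 of 9940 processed pseudogenes. Antisense genes can share their start regions with the opposite gene.

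Among the listed marker genes, 12 outside the olfactory receptor list had such a promoter. The count was 24 without replicate 1, 35 without replicate 2 and 4 among members above their median height. The lists gave 2 of 16 microglial genes, 2 of 19 vascular and meningeal genes, 3 of 10 striatal genes, and 1 each of 14 astrocyte, 18 oligodendrocyte lineage, 10 choroid plexus and ependyma, 19 other brain region and 39 Hox genes. None of the 16 excitatory neuron, 18 interneuron, 15 immediate early or 16 housekeeping genes had one, and all genes of the excitatory, immediate early and housekeeping lists had a shorter-list row in both mice. The blood, liver, skeletal muscle and pancreas and gut lists had none either, with no longer-list row at any start of 12 of 14 blood, 11 of 13 liver, 7 of 14 muscle and 7 of 12 pancreas and gut genes. Against 1.56% of all protein-coding genes, the share was 30% for striatum on 3 genes. It was 12.5% for microglia and 10.5% for vessels and meninges, on counts of 2 genes each. On 1 gene each, it was 10% for choroid plexus and ependyma, 7.14% for astrocytes and 5.56% for the oligodendrocyte lineage. Other brain regions had 5.26% and Hox genes 2.56%, also on 1 gene each.

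For microglia the genes were Tmem119, a membrane protein used to mark these cells, and Cx3cr1, the fractalkine receptor. Tmem119 had heights of 0.626 in replicate 1 and 0.533 in replicate 2, and Cx3cr1 of 0.401 and 0.331. Cx3cr1 also had 19 stronger regions in its annotated body or 10 kb flanks in each mouse, and Tmem119 had none. The complement genes C1qa and C1qb and the integrin gene Itgam had no longer-list row at a start in either library. For vessels and meninges they were Cldn5, the tight junction claudin of brain endothelium, with 0.365 and 0.348, and Dcn, a proteoglycan of fibroblasts, with 0.298 and 0.241. Tmem119 stood above the member medians in both mice and the other three below them.

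In the glial lists, Olig2, the transcription factor of the oligodendrocyte lineage, had the greatest height of the listed genes, at 1.02 in replicate 1 and 0.870 in replicate 2. Its row lay 33120 bp from the nearest shorter-list row. Of the 18 oligodendrocyte lineage genes, 7 had a shorter-list row at a start in both mice and 3 in 1 mouse. A further 6 had no longer-list row at a start. Aqp4, the water channel of astrocyte endfeet, had 0.322 and 0.236 at a start, and 1 stronger region elsewhere in its body or flanks. Only Aqp4 of the 14 astrocyte genes lacked a shorter-list row at its starts.

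The striatal genes were Isl1, Drd2 and Tac1. Isl1, a LIM homeodomain factor of striatal projection neurons, had 1.01 in replicate 1 and 0.595 in replicate 2, the widest gap among the 12 genes. Drd2, the dopamine D2 receptor, had 0.480 and 0.320, and Tac1, the substance P precursor, 0.444 and 0.331. Drd2 also had 3 stronger regions in its body or flanks in each mouse, and Isl1 and Tac1 had none. Outside these lists, Slc6a4, the serotonin transporter of raphe neurons, had 0.493 and 0.404. Kl, the klotho gene of choroid plexus, had 0.535 and 0.342, and Hoxc6, a Hox gene of posterior identity, 0.742 and 0.606. Every one of the 12 was lower in replicate 2, as were the members as a whole, whose median ratio of replicate 2 to replicate 1 was 0.865. That ratio carries the unstated factor of each library.

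**Figure D4:**
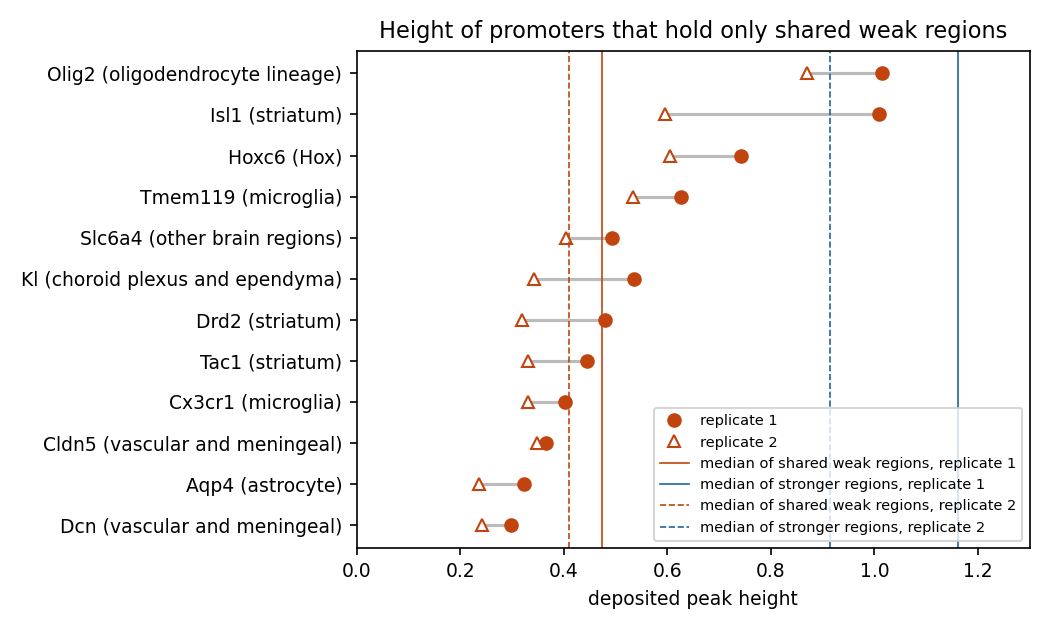
Deposited peak height (x axis) of the highest shared weak region at the starts of the 12 listed genes in each mouse, with lines at the medians of shared weak and stronger regions. Olig2, Isl1, Hoxc6 and Tmem119 lie above the weak medians in both mice and none exceeds the stronger median of its own mouse.

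The share of weak regions around genes differed from list to list. Regions were counted gene by gene in gene bodies and 10 kb flanks, so a region near several genes counts once for each. Over all protein-coding genes, shared weak regions made up 17.3% of these counts of shared weak and stronger regions in replicate 1. In replicate 2 they made up 17.1%. Around the interneuron genes the share was 38.6% and 39.1%, from 27 weak regions in each mouse. Sp9, a factor of migrating interneurons, had 6 of these, Gad2, a GABA synthesis enzyme, 5 in replicate 1 and 6 in replicate 2, and Reln, the reelin gene, 5 and 4. Without Sp9 the mean share was 34.1%. Of the 18 genes, 9 had a weak region.

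Excitatory neuron genes had 23.3% and 23.2%. Housekeeping genes had 7.89% and 9.09%, and immediate early genes a mean of 12.1%. Choroid plexus and ependyma genes had 41.7% in each mouse, on only 5 weak and 7 stronger regions. These are counts over few genes with the same 2 libraries, and no list was tested against another.

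**Figure D5:**
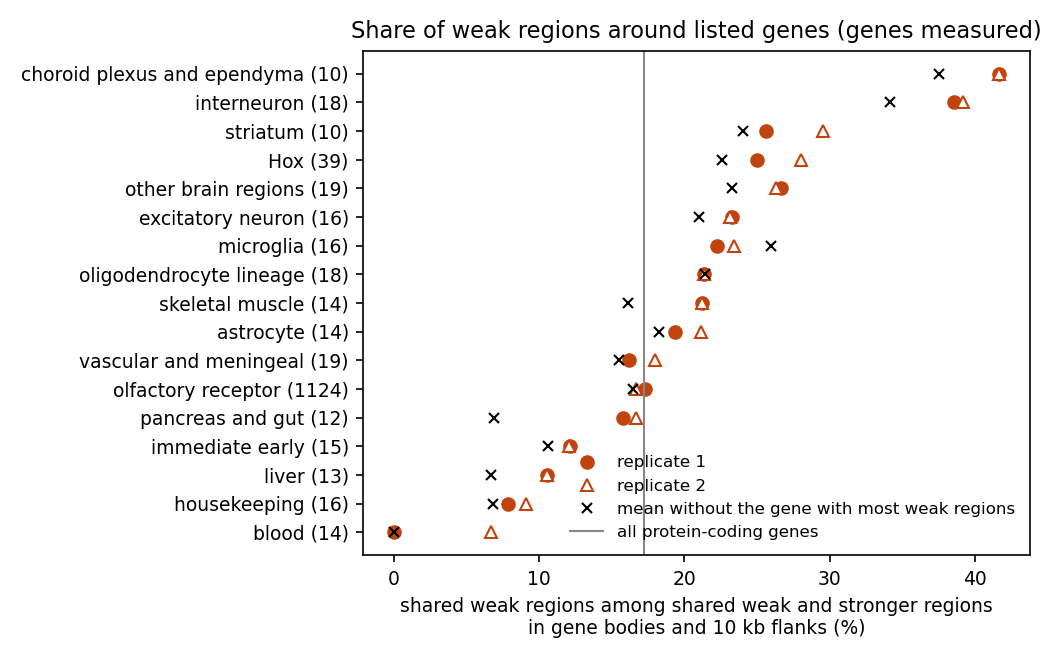
Shared weak regions as percent of shared weak and stronger regions in gene bodies and 10 kb flanks (x axis) for each list, with genes measured in parentheses, points for each mouse and a cross for the mean without the gene with most weak regions. The interneuron list lies at 38.6% and 39.1% and the housekeeping list at 7.89% and 9.09%, on either side of all protein-coding genes at 17.2%. A region near several genes counts once for each gene.

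The genes with the most weak regions were long ones. The annotated spans of Gm20388 (80 and 79 members), Fgfr2 (31 and 30) and Gm37240 (20 and 21) are 4435, 2961 and 1391 kb long. They were followed by Auts2 (18 and 17) and Tenm2 (17 and 17), and by Dlg2, Cdh13, Ctnna3 and Rbfox1 with 16 to 14 members in replicate 1. Per 100 kb of gene, Auts2 had 1.60 members and Dlg2, a postsynaptic scaffold gene, 0.803 in replicate 1. Members were 19.3% of weak and stronger regions together in Gm20388, 18.5% in Fgfr2, 28.1% in Auts2, 32.7% in Tenm2 and 31.4% in Dlg2 in replicate 1. The gene-by-gene count over all protein-coding genes gave 17.3%, with a region near several genes counted for each. With each region counted once, the share was 17.4% to 22.5% across the autosomes in replicate 1. The long genes named here were picked for their many members.

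Across the autosomes, members occurred at 5.94 per Mb on chromosome 14 to 8.97 per Mb on chromosome 11 in replicate 1, and at 5.74 to 8.89 per Mb on the same chromosomes in replicate 2. Chromosome X had 2.26 and 2.25 per Mb. The share of members among shared weak and stronger regions ranged from 17.4% to 22.5% of each autosome in replicate 1, with 18.3% on X, so X was low in both kinds of region.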

How the data were processed

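DNase-seq of left cerebral cortex came from 2 mice, 1 library each, on mm10. The deposited files per library were 2 peak lists, footprints and rates. Peak height is a signal value given by the authors, and its factor is not stated. The deposited footprint score is 1 constant, so only positions were used. The deposited rates are p-value-like false discovery rates of the cut rate, listed under 0.05 only. The aligner and callers are not named in the sources used, and depth in reads is unknown.

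Rows overlapping by at least 1 bp were called shared. Positions came from GENCODE M21 (55413 genes) by row centre, with promoters within 1 kb of any start. A gene was given a row when any base of it came within 1 kb of a start. The 17 motif patterns were searched on both strands in 200 bp around row centres of the GRCm38.p6 sequence. Overlapping matches of different motifs count for each. Footprint cover of matches was counted over whole rows. The 17 gene lists, the motifs and the members were chosen with earlier results of these data known. Values were computed per library with Python 3.11.15, numpy 2.4.6 and pandas 2.3.3, and overlap, distance and motif searches were tested on simulated intervals and sequences. Named genes follow a rule: for each list, up to 4 genes with only weak regions at starts, by mean height, and up to 3 alphabetical genes without a longer-list row; the 10 genes with most members; and the 5 highest, 5 lowest and 3 most unequal members on each side. The genes with most weak regions in a list were named after their values were seen. The alternatives were a stricter overlap, distance from shorter lists, height, repeat content, each mouse alone, a 500 bp promoter window and whole-row CTCF search. Sequences from chromosome 18 are not shown. A few genes that meet the naming rule are not reported here.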

Additional observations from a re-analysis of the deposited data

How the results depend on the processing

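The main values were a mean of 17566.5 members per mouse, a promoter share of 18.9%, a CTCF match share of 1.58%, a footprint share of 70.8%, a spread of the height ratio of 0.30 and 342 genes with weak regions only. Members above their own median height numbered 8677, with a promoter share of 22.0%, CTCF in 1.91%, footprints in 83.1%, a ratio spread of 0.26 and 141 genes. Members at least 500 bp from the shorter lists had a promoter share of 13.5% and CTCF in 1.88%. Overlap over at least 50% of the smaller row gave a promoter share of 18.5% and CTCF in 1.69%, and members mostly outside repeats a promoter share of 19.1%. A 500 bp promoter window gave 11.7%, and a search of the whole row found CTCF in 1.50%. With 1 mouse left out, rows that missed the other mouse's own shorter list ranged from 52485 to 53472, their promoter share from 18.1% to 19.0%, CTCF from 1.63% to 1.88%, footprints from 63.0% to 66.5% and genes from 919 to 1025. These alternatives draw other sets of rows by construction, and the SD between mice that they are judged by is small because both mice share most regions. No paired analysis was possible because there is only 1 group. Depth in reads is unknown.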

Other observations

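A few members lay on chromosome Y although the labels give both mice as female: 8 in replicate 1 and 6 in replicate 2, among 43 and 45 longer-list rows there. All but 1 in each mouse had the pseudogene Mid1-ps1 as the nearest start. The highest of them had a height of 0.602 in replicate 1 and 0.460 in replicate 2.

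Of 1124 olfactory receptor genes, 3 had a promoter with weak regions only and 1084 had no longer-list row at a start in either mouse.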
